A study of Mus musculus with 8 samples.

Results

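The genes described here encode the proteins of the cytosolic ribosome. Their probes were chosen by gene symbol (*Rpl* or *Rps* followed by a number, *Rplp0* to *Rplp2* and *Rpsa*), leaving out the S6 kinases, pseudogenes and mitochondrial ribosomal proteins. Of 24613 probes on the array, 70 probes for 53 genes met this rule, and 60 probes for 49 genes were also detected, which means a detection p under 0.05 on each of the 2 arrays of 1 or more sample types. These 60 probes are the members, and they stand among 12389 probes that passed the same detection filter. They comprise 20 probes for 15 small subunit proteins, 34 probes for 29 large subunit proteins, 5 probes for 4 paralogs (*Rpl22l1*, *Rps27l*, *Rpl3l* and *Rpl7l1*), and *Rps19bp1*, which meets the letters of the rule but encodes a protein that binds Rps19 rather than a subunit. The 10 probes left out by detection belong to *Rpl17*, *Rpl36al*, *Rpl37*, *Rpl38*, *Rpl39l*, *Rpl4*, *Rplp0* and *Rpsa*, with bead signals between 41.7 and 78.1, and *Rpl37*, *Rpl38*, *Rpl4* and *Rplp0* remained represented by another probe. No probe was listed under *Rplp1*, *Rplp2*, *Rps6*, *Rps27a* or *Rpl10l*.

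A ribosome joins a small subunit, which holds the mRNA and reads its codons, to a large subunit, which forms peptide bonds and guides the growing chain out through a tunnel. Each subunit is built in the nucleolus from ribosomal RNA and many proteins that are needed in about equal amounts. Most of their mRNAs begin with a terminal oligopyrimidine (TOP) tract, through which growth signals passed on by mTOR regulate their translation together. Activated and dividing lymphocytes are known for raising ribosome production. Ribosomal protein genes also have many processed pseudogenes, and a short array probe may not separate a gene from such copies, so single levels are uncertain to that extent.

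The study compared stroma and splenocytes of mouse spleen in 4 sample types with 2 Illumina MouseRef-8 arrays each. LTbR-KO stroma was fresh stroma of LTbR-/- mice, which lack the lymphotoxin beta receptor, and the other sample types were cultured stroma, fresh stroma and splenocytes of WT (LTbR+/+) mice, all with C57BL/6 as strain and 8 to 10 weeks old. Fresh stroma was the tissue that stayed on a 70 µm mesh when a spleen was rubbed through it, splenocytes were the cells that passed it, and by their markers both fresh stroma fractions still held blood and lymphoid cells. Cultured stroma consisted of adherent cells from whole minced spleens, not from the mesh fraction, grown in medium with 10% serum to week 3 to 4 and passage 2 to 3. The number of mice behind each array is not given in the sources used here. The 2 arrays of a sample type are described as replicates of an extract in one source and as biological replicates in another, so p-values measure the spread between arrays, which may be technical only.

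Levels are log2 of the bead signal after background correction and quantile normalization, and a probe was called where limma's test of all 8 arrays gave a Benjamini-Hochberg adjusted p under 0.05 over the 12389 probes. Between 9900 and 11283 probes were detected on an array, median bead signals lay between 55.9 and 66.6, and the members carried between 4.07% and 8.47% of the summed bead signal of an array. *Ltbr* itself was at 6.82 and 7.18 in LTbR-KO stroma, against 6.44 and 6.80 in WT stroma (limma adjusted p = 0.257); the place of this probe in the gene and the extent of the deletion are not known here, so the level checks no genotype. The tissue labels matched defining markers: all 8 smooth muscle and fibroblast genes measured were called higher in WT stroma than in WT splenocytes, and all 5 B cell and all 5 T cell genes tested were called lower. Cultured stroma had none of the 5 erythroid genes detected on both arrays, and 5 of the 6 B cell genes on the array were detected on neither cultured array.

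Promoter windows from RefSeq (mouse GRCm38.p6, 250 bases before to 50 after an annotated start) were on hand for 40 of the 49 member genes, and *Rpl7*, *Rpl8*, *Rpl21*, *Rpl29*, *Rpl32*, *Rpl36*, *Rps14*, *Rps20* and *Rps29* had no entry. CCGGAAG, the core that ETS-type factors such as GABP recognise, was found on either strand in 13 of the 40 genes (32.5%), against 9.93% of all 27025 genes in the table. AAGATGGC, the core of a YY1 site, was in 6 (15%, against 3.19%) and the TATA box letters TATAAA were in 6 (15%, against 15.7%). CTTTCC or CTTTTC on the gene's own strand within 20 bases of the start, the kind of pyrimidine run with which TOP mRNAs begin, was in 9 (22.5%, against 3.9%). At least 1 of these motifs was in 25 of the 40 (62.5%, against 29.8%). AAGATGGC was also searched on both strands and can overlap the end of the ETS-type core, TATAAA was searched on both strands, and a match is a description of the letters only.

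The excerpts below run from 60 bases before to 20 after the annotated start, on the gene's strand, and are shown for genes whose levels carry the results: *Rpl26* and *Rps3a1*, higher in LTbR-KO stroma; *Rpl38* and *Rps27l*, higher in culture; *Rps27*, *Rps18* and *Rpl22*, lower in culture as normalized here; and *Rpl22l1*, the paralog of *Rpl22*. Capitals mark matches to the 5 motifs. The pyrimidine runs are marked only within 20 bases of the start, so the ctttcc further upstream in *Rpl22* is not. The excerpts of *Rps18* and *Rpl22* have no marked match, and the capitals of *Rpl22l1* are 2 overlapping TATA matches on opposite strands.
Rpl26 (chr11:68901506-68901585, plus strand): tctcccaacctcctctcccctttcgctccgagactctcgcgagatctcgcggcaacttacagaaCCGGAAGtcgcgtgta
Rps3a1 (chr3:86142649-86142728, minus strand): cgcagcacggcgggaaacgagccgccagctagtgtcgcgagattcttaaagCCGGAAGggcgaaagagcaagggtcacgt
Rpl38 (chr11:114668520-114668599, plus strand): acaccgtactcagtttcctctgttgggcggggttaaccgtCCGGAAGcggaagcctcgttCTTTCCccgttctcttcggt
Rps27 (chr3:90213629-90213708, minus strand): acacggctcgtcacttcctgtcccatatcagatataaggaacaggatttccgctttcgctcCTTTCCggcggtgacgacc
Rps27l (chr9:66946026-66946105, plus strand): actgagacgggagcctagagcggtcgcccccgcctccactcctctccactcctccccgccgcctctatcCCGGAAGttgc
Rps18 (chr17:33955646-33955725, minus strand): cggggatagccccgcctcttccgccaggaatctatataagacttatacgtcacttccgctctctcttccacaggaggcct
Rpl22 (chr4:152325666-152325745, plus strand): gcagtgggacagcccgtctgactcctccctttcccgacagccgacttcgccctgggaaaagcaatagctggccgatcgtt
Rpl22l1 (chr3:28805448-28805527, plus strand): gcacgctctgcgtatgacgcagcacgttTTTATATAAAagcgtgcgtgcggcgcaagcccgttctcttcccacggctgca

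Ribosomal protein probes were mostly higher in LTbR-KO than in WT stroma where they were called, and mostly lower in WT stroma than in splenocytes. LTbR-KO stroma had 12 of 60 members called higher than WT stroma and 0 lower, and WT stroma had 41 called lower than WT splenocytes and 1 higher. Cultured stroma split the members, with 25 called higher and 8 lower than fresh WT stroma as quantile-normalized. The split was 44 higher and 2 lower when arrays were scaled to their 75th percentile, but 24 and 11 with cyclic loess. With cyclic loess, 35% and 31.3% of all probes tested were called higher and lower. Against WT splenocytes, cultured stroma had 5 members called higher and 35 lower. Among all probes tested as quantile-normalized, the shares called higher and lower were 5.31% and 7.18% between LTbR-KO and WT stroma. They were 33.8% and 30.9% between cultured and fresh WT stroma, and 24.2% and 31.6% between WT stroma and WT splenocytes. Between cultured WT stroma and WT splenocytes they were 29.4% and 29.8%. The members' shares in the same comparisons were 20% and 0%, 41.7% and 13.3%, 1.67% and 68.3%, and 8.33% and 58.3%. For cultured against fresh WT stroma, no such share of all probes is given here under scaling to the 75th percentile. Counts in that setting thus stand without a like background.

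**Figure D1:**
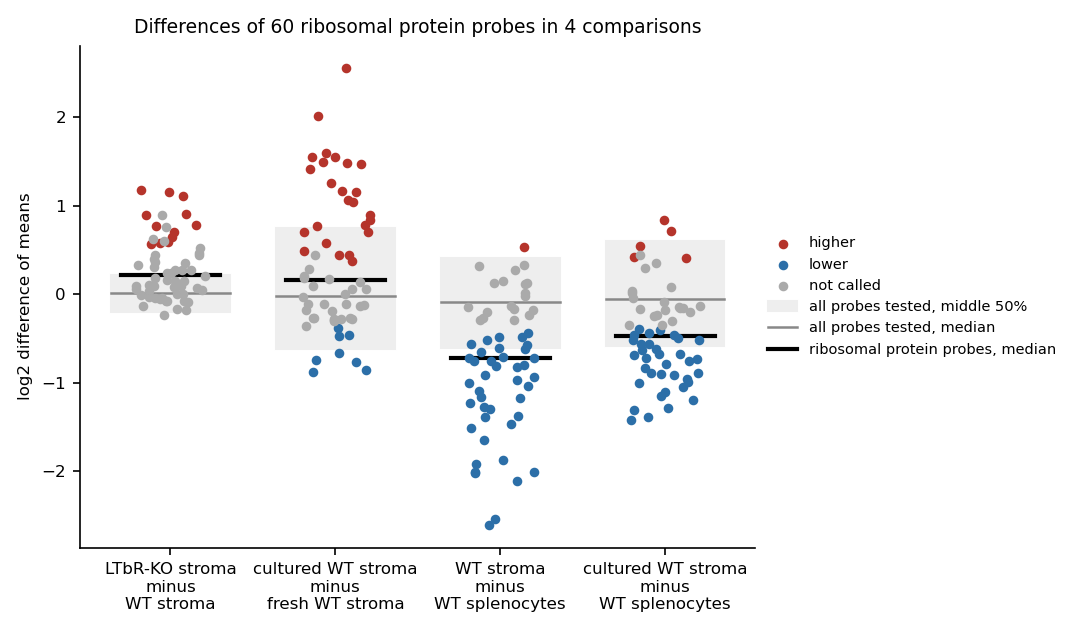
Log2 difference of group means for each of the 60 ribosomal protein probes (points) in 4 comparisons, coloured by whether limma's test called the probe higher, lower or not. The black bar is the members' median (0.22, 0.16, −0.72 and −0.48 from left to right), and the grey box and line are the middle 50% and the median of all 12389 probes tested. In the second comparison the 8 lower calls became 2 when arrays were scaled to the 75th percentile and 11 with cyclic loess.

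By group means, WT splenocytes had the highest level of the 4 sample types for 35 of the 60 members (58.3%, against 29% of all probes tested) and the lowest for 0 (against 22.7%). WT stroma had the lowest level for 28 (46.7%, against 24.2%) and cultured stroma for 23 (38.3%, against 37.3%). LTbR-KO stroma lay between WT stroma and WT splenocytes for 38 (63.3%, against 55.5%). These are descriptions of order, and 2 arrays a sample type leave neighbouring means undistinguished for many probes. LTbR-KO and WT stroma arrays overlapped for 24 members, and cultured and fresh WT stroma for 12. WT stroma and WT splenocytes overlapped for 7, and cultured WT stroma and WT splenocytes for 7. Members wholly above and below numbered 32 and 4 (27% and 25.1% of all probes) and 30 and 18 (41% and 41.4%) in the first 2 comparisons. In the other 2 they numbered 5 and 48 (33.6% and 44.8%) and 8 and 45 (38.1% and 43.6%).

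The first question was how stroma without the receptor differed from WT stroma. Ribosomal proteins of both subunits were higher in LTbR-KO stroma, by 1.48-fold to 2.26-fold among the 12 called probes, and the median log2 difference of all 60 members was 0.22, against 0.02 for all probes tested. On arrays, both LTbR-KO arrays lay above both WT arrays for 32 members and below for 4, where 27% and 25.1% of all probes did. Fewer cells of a type and less RNA per cell cannot be told apart in such bulk samples.

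Among small subunit proteins, 6 of 20 probes were called higher and 0 lower. *Rps3*, which lines the channel where mRNA enters the ribosome, was at 9.76 and 10.00 on its dimmer probe in LTbR-KO stroma, against 8.76 and 8.64 in WT stroma, a 2.26-fold difference (log2 1.18 ± 0.15 SE, limma adjusted p = 0.000898). Its brighter probe gave 12.71 and 12.51 in LTbR-KO stroma, against 12.09 and 11.85 in WT stroma (1.56-fold, adjusted p = 0.043). Both probes thus placed both LTbR-KO arrays above both WT arrays. *Rps3a1*, a protein of the small subunit's platform, was at 10.08 and 10.48 in LTbR-KO stroma, against 9.04 and 9.22 in WT stroma (2.22-fold, log2 1.15 ± 0.19, adjusted p = 0.00373), again without overlap. *Rps16*, whose tail reaches toward the tRNA in the peptidyl site, was 1.5-fold higher (adjusted p = 0.0201), *Rps15* of the small subunit's head 1.48-fold (adjusted p = 0.0271), and *Rps9* on 1 of its 5 probes 1.49-fold (adjusted p = 0.0271). The other 4 *Rps9* probes had log2 differences between −0.18 and 0.15 and were not called.

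Among large subunit proteins, 6 of 34 probes were called higher and 0 lower. *Rpl26*, which sits near the exit of the peptide tunnel, was at 11.11 and 11.50 in LTbR-KO stroma, against 9.92 and 10.47 in WT stroma, a 2.16-fold difference (log2 1.11 ± 0.20, limma adjusted p = 0.00596). *Rpl36* was at 9.50 and 9.35 in LTbR-KO stroma, against 8.57 and 8.49 in WT stroma (1.86-fold, adjusted p = 0.00371). The arrays of the 2 sample types did not overlap for either gene. *Rpl10a*, the protein of the mobile stalk by which used tRNA leaves, was 1.87-fold higher (adjusted p = 0.024), *Rpl7* 1.72-fold (adjusted p = 0.00751), *Rpl37a* 1.70-fold (adjusted p = 0.024) and *Rpl10*, which joins the large subunit late in assembly, 1.63-fold (adjusted p = 0.0392). *Rpl39*, a small protein of the exit tunnel, had a difference as large as some of these, with 12.58 and 13.22 in LTbR-KO stroma, against 11.90 and 12.12 in WT stroma, but was not called (log2 0.89 ± 0.26, adjusted p = 0.0524).

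**Figure D2:**
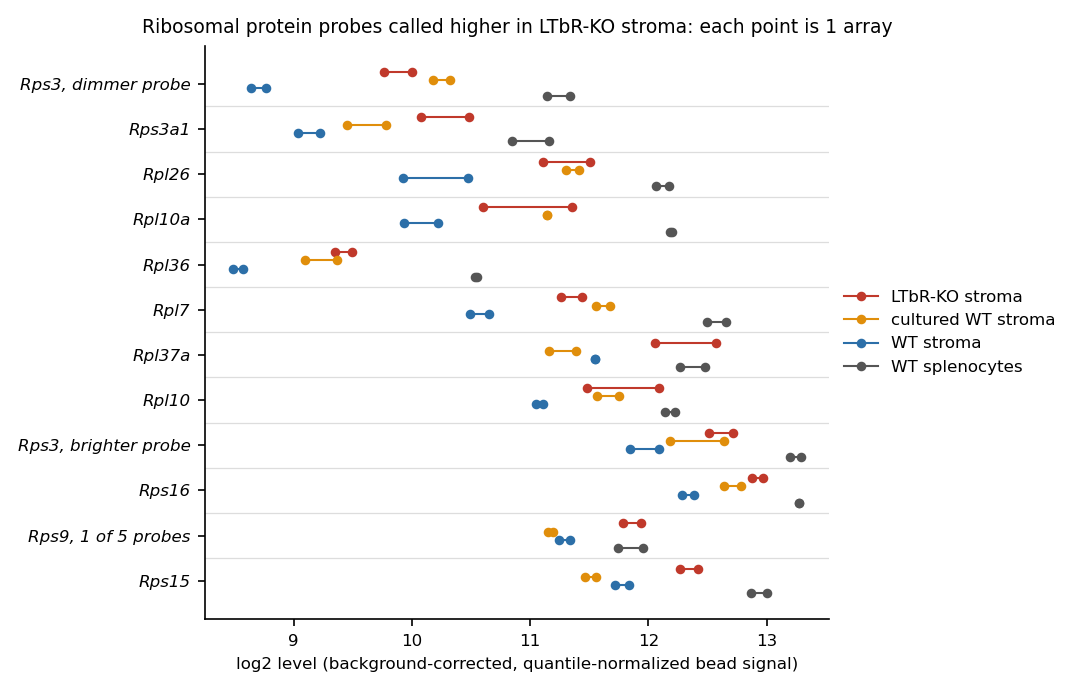
Log2 levels of the 12 ribosomal protein probes called higher in LTbR-KO stroma than in WT stroma, with 1 point an array and a line joining the 2 arrays of a sample type, from top to bottom in each row LTbR-KO stroma, cultured WT stroma, WT stroma and WT splenocytes. In every row both LTbR-KO arrays lie to the right of both WT stroma arrays, by 1.48-fold to 2.26-fold in the means, and for 10 of the 12 probes both splenocyte arrays lie to the right of both LTbR-KO arrays.

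The 5 paralog probes and *Rps19bp1* were not called between LTbR-KO and WT stroma, with log2 differences between −0.08 and 0.24, and neither were *Rpl5* (0.52, adjusted p = 0.0591) and *Rpl11* (0.18, adjusted p = 0.501), the partners of ribosomal RNA that bind Mdm2 when assembly stalls, nor *Rplp0* (0.28, adjusted p = 0.329), the base of the stalk that recruits elongation factors. The lowest differences were those of *Rps15a* (−0.23), *Rps9* on 1 probe (−0.18, but 0.0050 with scaling to the 75th percentile), *Rpl27a* on 1 probe (−0.17) and *Rpl14* (−0.13, but 0.059 with that scaling), all uncalled. Lymphocyte markers moved with the members in this comparison. Of the B cell genes, 4 of 5 tested were called higher in LTbR-KO stroma, with a summed linear level of 11324.5 to 12524.9 in LTbR-KO stroma, against 4761 to 5668 in WT stroma, 13941.9 to 14151.4 in WT splenocytes and 61.5 to 62.0 in cultured stroma. Of the T cell genes, 4 of 5 were higher (3283 to 4097 in LTbR-KO stroma, against 1341 to 1626 in WT stroma), and all 5 pancreatic acinar genes tested were higher too (14025 to 14199, against 3248 to 3930). Of 6 endothelial genes, 4 were lower (4762 to 5427 in LTbR-KO stroma, against 7449 to 7538 in WT stroma), and of 8 smooth muscle and fibroblast genes 3 were lower and 1 higher (15868 to 17067 in LTbR-KO stroma, against 23460 to 26910 in WT stroma). Summed proliferation genes were at 1717 to 2056 in LTbR-KO stroma, against 1126 to 1461 in WT stroma, with 1 of 4 called higher. The part of these cell types in the ribosomal protein difference was not tested.

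How many members were called between LTbR-KO and WT stroma depended on the arrays and the scaling. The 12 calls became 4 without WT stroma replicate 1, 6 without LTbR-KO stroma replicate 2, 7 without WT stroma replicate 2, 7 with cyclic loess, 6 with the authors' normalized values, and 5 both with scaling to the 75th percentile and with only these 4 arrays in the fit. The share of all probes called higher also dropped in these settings, to between 2.32% and 4.19%. No member was called lower in any setting, and *Rps3* on its dimmer probe, *Rps3a1*, *Rpl26* and *Rpl36* were called in all 18 settings tried.

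The next question was what growth in culture did to the same genes. Cultured stroma had higher levels of many members of low or middle brightness than fresh WT stroma, while the calls among the brightest members went both ways as quantile-normalized. Among large subunit proteins 15 of 34 probes were called higher and 3 lower, among small subunit proteins 5 of 20 and 5, and among paralogs 4 of 5 and 0. The members' median log2 difference was 0.16 as quantile-normalized and 0.78 with scaling to the 75th percentile, against −0.02 and −0.01 for all probes tested.

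*Rpl23*, a large subunit protein at the face that meets the small subunit, had the largest difference of the members, on 1 of its 3 probes. That probe was at 8.24 and 8.69 in cultured stroma, against 5.79 and 6.03 in fresh WT stroma (5.86-fold, log2 2.55 ± 0.21, limma adjusted p = 2.08e-06). The bright probe of the gene gave 13.10 and 12.68 in cultured stroma, against 13.02 and 13.34 in fresh WT stroma, and was not called (adjusted p = 0.219), so the 3 probes do not give 1 answer for the gene. *Rpl38*, which is needed for normal skeletal patterning in mice, was at 9.32 and 8.98 in cultured stroma, against 7.0 and 7.27 in fresh WT stroma (4.04-fold, log2 2.02 ± 0.18, adjusted p = 3.68e-06). *Rplp0* was at 7.84 and 7.50 in cultured stroma, against 6.06 and 6.10 in fresh WT stroma (3.02-fold, adjusted p = 9.89e-06). Cultured arrays lay above fresh ones without overlap for both genes.

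Further members were higher in culture by similar factors. *Rps24*, a small subunit protein mutated in some families with Diamond-Blackfan anaemia, was 2.93-fold higher (limma adjusted p = 8.55e-05), and *Rps3* on its dimmer probe 2.92-fold (adjusted p = 7.57e-06). The brighter *Rps3* probe was 1.36-fold higher and not called (adjusted p = 0.0522), though it was called with scaling to the 75th percentile (log2 1.31). *Rpl13a*, which in human monocytic cells can leave the ribosome to silence inflammatory mRNAs, was called on both probes, at 2.81-fold and 2.39-fold. *Rpl29* was 2.65-fold higher (adjusted p = 7.02e-05) and *Rps19bp1* 2.78-fold (adjusted p = 1.7e-05). *Rps19*, another gene of Diamond-Blackfan anaemia, was detected on neither fresh WT stroma array and was at least 1.44-fold higher in culture (adjusted p = 0.000284). Such a lower bound stands wherever a probe was undetected on both arrays of the dimmer group, and its denominator is the lowest detected signal there or the probe's own, whichever is higher.

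The 8 probes called lower in culture were *Rps15a*, *Rps27*, *Rps18*, *Rpl22*, *Rps14*, *Rps20*, *Rpl36a* and *Rpl37*. *Rps15a* was at 4.59 and 4.82 in cultured stroma, detected on neither array, against 5.51 and 5.67 in fresh WT stroma, and was at least 1.53-fold lower (limma adjusted p = 0.00184). *Rps18*, a protein of the small subunit's head, was at 12.64 and 12.62 in cultured stroma, against 13.42 and 13.36 in fresh WT stroma (log2 −0.76 ± 0.13, adjusted p = 0.000515), but with scaling to the 75th percentile its difference was 0.17 and not called. *Rps27*, *Rps14* and *Rps20* turned in the same way, with log2 differences of −0.86, −0.67 and −0.48 as quantile-normalized and 0.23, 0.18 and 0.33 with the other scaling. Of the 8 probes, 1 kept its lower call under that scaling (*Rps15a*), 6 lost it and 1 (*Rpl36a*) was called higher. With cyclic loess, 7 of the 8 kept their lower call, and with the authors' normalized values 7 did too. Without cultured stroma replicate 2 or without WT stroma replicate 2, 5 probes were called lower.

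**Figure D3:**
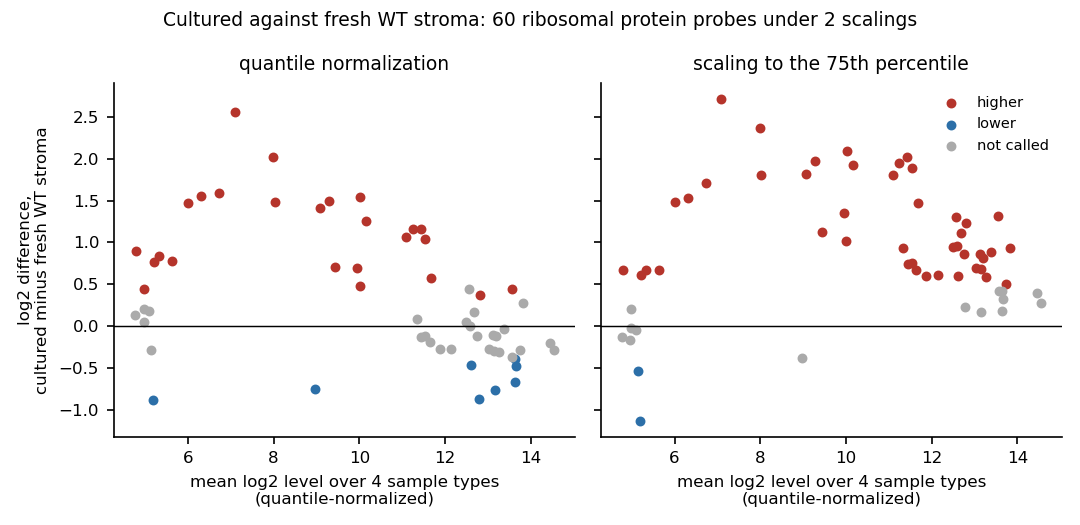
Log2 difference between cultured and fresh WT stroma for the 60 ribosomal protein probes (y axis) against their mean log2 level over the 4 sample types (x axis), after quantile normalization (left) and with each array scaled to its 75th percentile (right). The higher calls at low and middle levels appear in both panels, whereas the bright probes at the right of each panel lie around and below 0 on the left (25 higher and 8 lower calls in all) and mostly above 0 on the right (44 and 2).

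The difference between cultured and fresh WT stroma was smaller for brighter members. Among the 30 brighter members, 5 were called higher and 6 lower, and among the 30 dimmer ones 20 and 2. Across the 60 probes the log2 difference and the mean level had r = −0.44 and rho = −0.54, a description only, since the probes share the 8 arrays and their scaling. Members made up between 18 and 27 of the 100 brightest probes of an array. *Rpl41*, the smallest of the ribosomal proteins, was at 14.53 and 14.21 in cultured stroma and at 14.65 on both fresh WT stroma arrays. Its bead signals before normalization ran the other way, at 33354 and 25989 in cultured stroma, against 16054 and 21047 in fresh WT stroma. Cell type markers also separated cultured from fresh WT stroma. Summed B cell levels were 61.5 to 62.0 in cultured stroma, against 4761 to 5668 in fresh WT stroma, and endothelial levels were 60.1 to 68.6 in cultured stroma, against 7449 to 7538 in fresh WT stroma. Erythroid levels were 36.4 to 37.2 in cultured stroma, against 49750 to 49920 in fresh WT stroma, and smooth muscle and fibroblast levels were 10744 to 10863 in cultured stroma, against 23460 to 26910 in fresh WT stroma. Summed T cell levels were 236 to 306 in cultured stroma, against 1341 to 1626 in fresh WT stroma, with 4 of 5 genes called lower and 1 higher. Macrophage levels, at 20606 to 23553 in cultured stroma, against 4069 to 4332 in fresh WT stroma, lay higher in culture. Of the 4 macrophage genes tested, 3 were called higher and 1 lower. Summed proliferation genes were at 814 to 981 in cultured stroma, against 1126 to 1461 in fresh WT stroma, with 1 of 4 called higher and 2 lower. Their part in the members' differences was not tested.

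In culture, 2 paralogs were called higher while the proteins they resemble were called lower as quantile-normalized. *Rps27l*, a target of p53 that can take the place of *Rps27* in the small subunit, was at 11.86 and 12.22 in cultured stroma, against 10.96 and 10.81 in fresh WT stroma (2.23-fold, log2 1.16 ± 0.16, limma adjusted p = 9.72e-05). *Rps27* was at 12.09 and 11.84 in cultured stroma, against 12.50 and 13.15 in fresh WT stroma (log2 −0.86 ± 0.23, adjusted p = 0.00652), a difference that was 0.23 and not called with scaling to the 75th percentile, where *Rps27l* stayed higher. By sign alone, the 2 probes thus lay on opposite sides of fresh WT stroma in every setting tried except scaling to the 75th percentile. The lower call of *Rps27* did not hold in every other setting, and its log2 difference ranged from −1.19 to 0.23. The difference between the genes was not tested.

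*Rpl22*, which mice need for the development of conventional T cells, was at 8.43 and 8.35 in cultured stroma, against 9.15 and 9.11 in fresh WT stroma (log2 −0.74 ± 0.14, limma adjusted p = 0.000796), and at −0.38 (adjusted p = 0.0597) with scaling to the 75th percentile. Its paralog *Rpl22l1* was at 5.03 and 4.95 in cultured stroma, where 1 array detected it, against 4.46 and 4.63 in fresh WT stroma, where neither did, and was at least 1.12-fold higher (adjusted p = 0.0278). This call of *Rpl22l1* was lost in 6 of 18 settings, with scaling to the 75th percentile (log2 0.21, adjusted p = 0.362), with the authors' values, with offset 50, and without either cultured array or WT stroma replicate 1. *Rpl7l1* was higher in culture on both probes (log2 1.48 and 0.78), and so was *Rpl7* (1.04). *Rpl3l*, a striated muscle paralog, was detected on splenocyte arrays only and was not called in culture (0.14, adjusted p = 0.504).

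**Figure D4:**
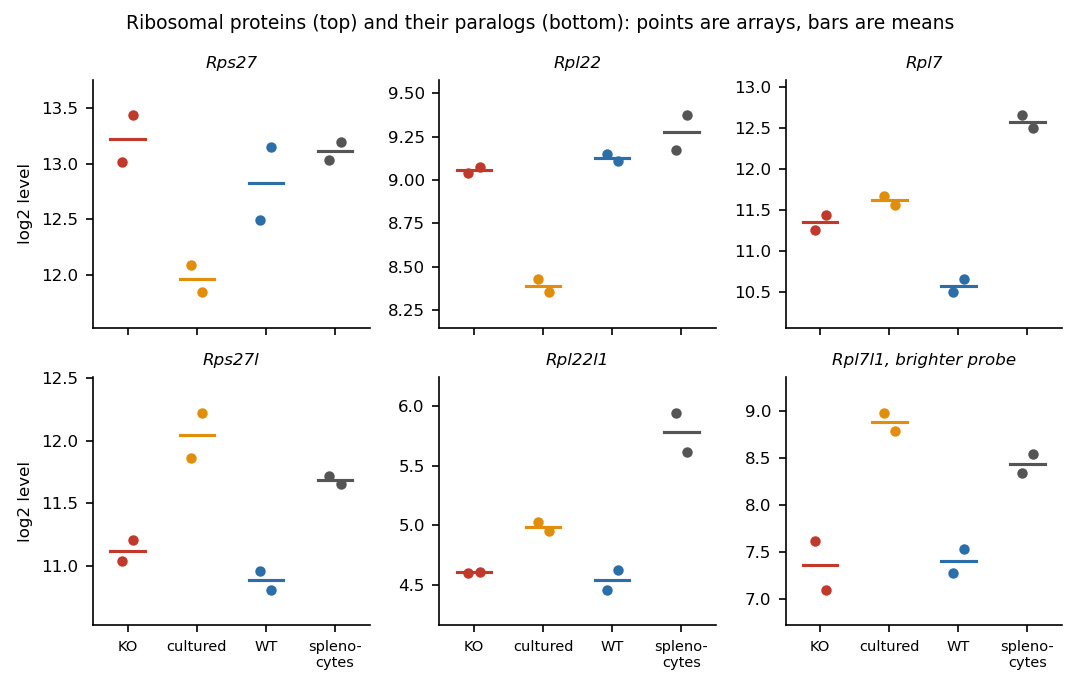
Log2 levels of 3 ribosomal proteins (top row) and their paralogs (bottom row) on every array (points, with group means as bars) in LTbR-KO stroma, cultured WT stroma, WT stroma and WT splenocytes, each panel with its own y axis. As quantile-normalized, *Rps27* and *Rpl22* lie lower in cultured than in fresh WT stroma and *Rps27l* lies higher, but with scaling to the 75th percentile the difference of *Rps27* is 0.23 and that of *Rpl22* −0.38.

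Fresh stroma was then set against the splenocytes it was separated from. WT stroma had lower levels of 41 of 60 members than WT splenocytes, among them 23 of 34 large subunit probes, 12 of 20 small subunit probes and all 5 paralog probes. The paralog probes of *Rpl22l1* and *Rpl3l* passed the detection filter only through WT splenocytes. Their lower calls follow in part from that filter and add no support. *Rpl29*, a large subunit protein whose loss makes mice small, was at 8.05 and 7.78 in WT stroma, against 10.61 and 10.43 in WT splenocytes (6.08-fold lower, log2 −2.60 ± 0.19, limma adjusted p = 1.02e-06). *Rps3* on its dimmer probe was at 8.76 and 8.64 in WT stroma, against 11.33 and 11.14 in WT splenocytes (5.80-fold lower, adjusted p = 2.68e-07). Neither gene's arrays overlapped, and all arrays of WT stroma lay below all arrays of WT splenocytes for 48 of 60 members, where 44.8% of all probes did. *Rpl10a* (log2 −2.11), *Rpl36* (−2.02), *Rpl23* on 1 probe (−2.01), *Rpl7* (−2.00), *Rpl26* (−1.92) and *Rps3a1* (−1.87) followed, and all but *Rpl23* are among the genes higher in LTbR-KO stroma, a comparison that shares the WT stroma arrays with this one.

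*Rps15a* was the 1 member called higher in WT stroma, at 5.51 and 5.67, against 5.04 and 5.08 in WT splenocytes (1.45-fold, limma adjusted p = 0.033), and it lost this call when any of these 4 arrays was left out. The bright probes of *Rps20* (0.33), *Rps14* (0.31), *Rps18* (0.27) and *Rps21* (0.13) had positive log2 differences that were not called as quantile-normalized. With scaling to the 75th percentile they were −0.54, −0.55, −0.58 and −0.71 and called lower. *Rps20*, *Rps14* and *Rps18* were instead called higher without background correction, with offset 50 and with the authors' normalized values. Scaling to the 75th percentile moved the members' median from −0.72 to −1.16, against −0.09 for all probes tested in both. The lower counts stood between 34 and 41 with an array left out. Summed proliferation genes were at 1126 to 1461 in WT stroma, against 2690 to 2858 in WT splenocytes, and all 4 tested were called lower. The part of dividing cells in the members' differences was not tested.

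Cultured stroma had lower levels of 35 members than WT splenocytes, and the proliferation genes, summed to 814 to 981 in cultured stroma, against 2690 to 2858 in WT splenocytes, were lower too (4 of 4 tested called). Among the 35 members, *Rpl22l1* and *Rpl3l* passed the detection filter only through WT splenocytes, so their lower calls add no support. *Rps15* was at 11.46 and 11.56 in cultured stroma, against 13.002 and 12.87 in WT splenocytes (2.69-fold lower, log2 −1.43 ± 0.14, limma adjusted p = 8.51e-06). *Rps3a1* (log2 −1.39), *Rpl36* (−1.31), *Rpl35a* (−1.29), *Rpl29* (−1.20) and *Rps27* (−1.15) had the next lowest values. For 45 members both cultured arrays lay below both splenocyte arrays, where 43.6% of all probes did. *Rplp0* was the member furthest above splenocytes, at 7.84 and 7.50 in cultured stroma, against 6.97 and 6.69 in WT splenocytes (1.79-fold, adjusted p = 0.00113). *Rpl38* (1.64-fold), *Rpl23* on 1 probe (1.46-fold), *Rpl27a* on 1 of 2 probes (1.34-fold) and *Rps19* (1.33-fold) were the others called higher. Without splenocyte replicate 1 the lower calls numbered 23, and the higher calls numbered 1 without splenocyte replicate 2 and 3 without either cultured array.

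Other probes of like brightness did not share these splits. Of 35 members with a mean bead signal over 2000, 9 were called higher and 0 lower in LTbR-KO stroma, while of 329 other probes above that signal 24 were higher and 27 lower. The same 35 members had 0 higher and 22 lower calls in WT stroma against WT splenocytes, and 0 and 27 in cultured stroma against WT splenocytes, where the other bright probes had 95 and 114, and 137 and 95. In cultured against fresh WT stroma the bright members gave 7 and 6, and the other bright probes 145 and 97. These counts are descriptions, and the members were not chosen independently of earlier results.

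Mitochondrial ribosomal proteins, the nuclear-encoded proteins of a separate ribosome inside mitochondria, were counted with 1 probe a gene for 66 genes, and the difference between the lists was not tested. In cultured against fresh WT stroma, 55 were called higher and 3 lower (median log2 0.99), where cytosolic ribosomal protein genes counted the same way gave 20 higher and 8 lower of 49 (median 0.09). With scaling to the 75th percentile the counts were 59 and 0 (median 1.26) for mitochondrial and 35 and 1 (median 0.74) for cytosolic genes. *Mrps18b*, of the mitochondrial small subunit, had the largest difference (log2 2.33, limma adjusted p = 6.13e-07). In LTbR-KO against WT stroma 0 were called higher and 1 lower, *Mrpl17* (log2 −0.57, adjusted p = 0.0455), against 10 and 0 of the cytosolic genes, and with scaling to the 75th percentile these counts were 0 and 0 for mitochondrial and 4 and 0 for cytosolic genes. In WT stroma against WT splenocytes both lists were mostly lower, with 2 higher and 54 lower mitochondrial genes (median −0.84) and 1 and 32 cytosolic genes (median −0.72). In cultured stroma against WT splenocytes the mitochondrial genes had 8 higher and 10 lower calls (20 and 5 with scaling to the 75th percentile), and the cytosolic genes 4 and 30 (5 and 24).

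Genes that share the TOP tract or act with the ribosome were counted the same way. Of all probes tested, 5.31% were called higher and 7.18% lower in LTbR-KO stroma, and 33.8% and 30.9% in culture. In WT stroma against WT splenocytes these shares were 24.2% and 31.6%. Of 15 other TOP mRNAs, 1 was called higher and 0 lower in LTbR-KO stroma: *Eef1b2*, a subunit of the factor that recharges elongation factor 1A (log2 0.97, limma adjusted p = 0.0025). In culture 9 were higher and 1 lower than in fresh WT stroma, among them *Nap1l1* (1.36) and *Naca* (0.96), a subunit of the complex that meets nascent chains at the tunnel exit. WT stroma had 1 higher, *Vim* (1.72), the filament protein of mesenchymal cells, and 11 lower than WT splenocytes. Of 10 eIF3 subunits, which load the small subunit onto mRNA, 1 was higher in LTbR-KO stroma (*Eif3l*, 0.62, adjusted p = 0.0179), and 6 were higher and 1 lower in culture. Of 20 other initiation factors, 2 were higher in LTbR-KO stroma (*Eif2b5* and *Eif5*), and 14 were higher and 4 lower in culture, where *Eif4ebp1*, a repressor of cap binding that mTOR switches off, was at a log2 difference of 2.12.

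Of 36 ribosome biogenesis genes, 1 was called higher in LTbR-KO stroma (*Emg1*, a methyltransferase of ribosomal RNA, log2 0.78, limma adjusted p = 0.0207), and 13 were higher and 5 lower in culture. The shares in culture were 36.1% and 13.9%, against 33.8% and 30.9% of all probes tested, so the share called higher lay near that of all probes. *Nop56* and *Nhp2*, core proteins of the particles that modify ribosomal RNA, had log2 differences of 2.31 and 2.08 in culture, and *Tcof1*, which aids transcription of ribosomal RNA genes, one of −1.28. Against WT splenocytes, WT stroma had 2 of these genes higher and 22 lower. RNA polymerase I and its factors gave 0 calls in LTbR-KO stroma and 4 higher and 4 lower of 13 in culture (30.8% each, near the shares of all probes). Of 9 S6 kinases and TOP regulators, 0 were called in LTbR-KO stroma and 3 were higher and 2 lower in culture (33.3% and 22.2%), with *Myc* at 0.57 and *Tsc2* at −0.67. Of 7 elongation factors, 1 was higher in LTbR-KO stroma and 3 were higher and 1 lower in culture.

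**Figure D5:**
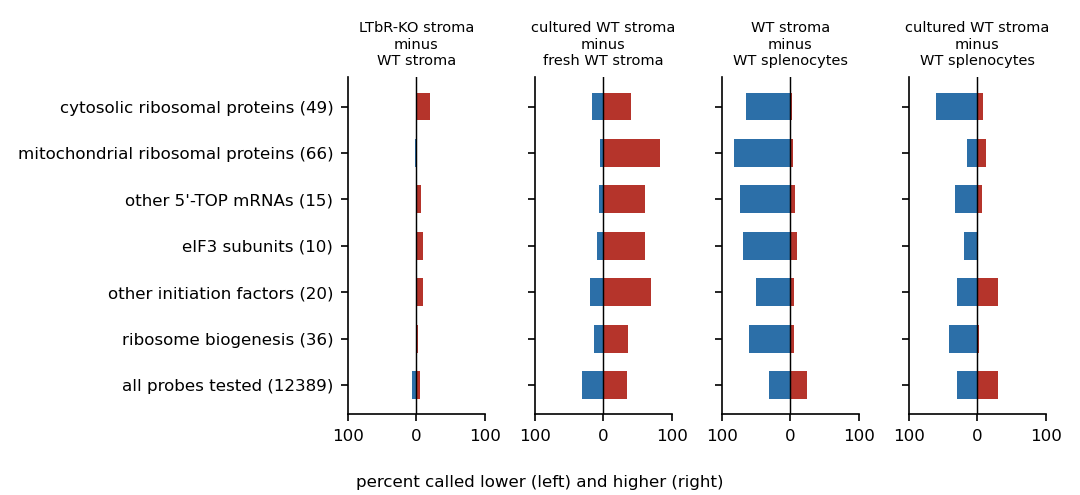
Share of genes called higher (red, to the right) and lower (blue, to the left) in 4 comparisons for cytosolic ribosomal proteins, mitochondrial ribosomal proteins, other TOP mRNAs, eIF3 subunits, other initiation factors and ribosome biogenesis genes (1 probe a gene, number in brackets), with all 12389 probes tested at the bottom. Cytosolic ribosomal proteins had 20.4% higher and 0% lower in LTbR-KO stroma, and mitochondrial ribosomal proteins had 83.3% higher in culture; in culture the cytosolic split of 40.8% higher and 16.3% lower is that of quantile normalization.

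Members grouped by place in the ribosome gave small counts (1 probe a gene). Of 5 proteins at the exit tunnel and its rim (*Rpl4*, *Rpl22*, *Rpl26*, *Rpl35* and *Rpl39*), 1 was called higher in LTbR-KO than in WT stroma, 4 were lower in WT stroma than in WT splenocytes, and all 5 were lower in cultured stroma than in WT splenocytes. Of 5 proteins along the mRNA channel, *Rps3* and *Rps15* among them, 2 were higher in LTbR-KO stroma, 2 were lower in WT stroma than in WT splenocytes, and 3 were lower in cultured stroma than in WT splenocytes. *Rpl5* and *Rpl11* were called in neither comparison between stroma samples as quantile-normalized, although both were called higher in culture (0.74 and 0.87) with scaling to the 75th percentile.

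The promoter motifs can be set beside the calls as a description. Of the 11 genes with a probe called higher in LTbR-KO stroma, 9 had a promoter window, of which 2 (*Rpl26* and *Rps3a1*) held CCGGAAG and 0 held AAGATGGC, TATAAA or the pyrimidine run near the start. Of the other 31 genes with a window, 11 held CCGGAAG, 6 AAGATGGC, 6 TATAAA and 9 the pyrimidine run. Of 18 genes with a window and a probe called higher in culture, 6 held CCGGAAG, 2 AAGATGGC, 2 TATAAA and 4 the pyrimidine run. Of 6 genes with a probe called lower, 2 held CCGGAAG, 3 AAGATGGC, 2 TATAAA and 1 the pyrimidine run. Of 16 with neither, 5 held CCGGAAG, 1 AAGATGGC, 2 TATAAA and 4 the pyrimidine run.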

How the data were processed

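RNA of 2 extracts or extract replicates per sample type was hybridised to Illumina MouseRef-8 beadchips, on 8 arrays in all. The authors exported from GenomeStudio, as named in the submitters' notes, and deposited for each probe an average bead signal, an intensity with no normalization, together with a detection p-value from negative control beads. Per the labels and file headers, a further deposited table holds intensity after cubic spline normalization and background subtraction, and it served as an alternative. An aligner or build plays no part in these values. Bead signals were background-corrected (normexp, with the background estimated through the detection p-values, offset 16), quantile-normalized and log2-transformed by neqc of limma 3.58.1 in R 4.3.3. Probes were tested where both arrays of some sample type had a detection p under 0.05 (12389 of 24613 probes). lmFit was run on the 8 arrays together, followed by eBayes (4 residual and 6.22 prior degrees of freedom) and Benjamini-Hochberg adjustment. The number of arrays limits the precision. Symbols were those of the platform annotation, which gave 1 symbol for 20984 probes, several for 1 and none for 3628, and 20968 probes found a RefSeq gene by ID.

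The members and lists were chosen with earlier results of these data known. Named in each comparison were the paralogs, the 6 members with the highest and the 6 with the lowest log2 difference, *Rplp0*, *Rpl5*, *Rpl11* and *Rps19*, and genes whose probes disagreed. Other genes named, such as the remaining called members and examples from lists, were chosen after their values were seen. The brightest probe stood for a gene in list counts. Replicate numbers were not taken as pairs, since the replicate differences of sample types correlated at 0.29 for LTbR-KO and WT stroma and between −0.14 and 0.11 otherwise. The test was checked on simulated data. Motifs were counted in Python 3.11.15 and figures drawn with matplotlib 3.10.9. Alternatives were other background corrections, normalizations and detection filters, a fit of the compared sample types alone, a replicate block, a trend in eBayes, 1 probe a gene, and leaving out each array. Members detected on all 8 arrays, and the 75th percentile scaling of the mitochondrial list, were alternatives added after seeing the data.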

Additional observations from a re-analysis of the deposited data

How the results depend on the processing

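Between LTbR-KO and WT stroma, the 12 members called higher became 7 with cyclic loess, 5 with scaling to the 75th percentile, 6 with the authors' normalized values and 5 in a fit of only these sample types, and lay between 4 (without WT stroma replicate 1) and 15 (without LTbR-KO stroma replicate 1) with an array left out. Between cultured and fresh WT stroma, scaling to the 75th percentile gave 44 higher, 2 lower and a median of 0.78. Higher and lower calls were 24 and 11 with cyclic loess, 25 and 11 with offset 50, and 26 and 12 without background correction. The shares of all probes were 35% and 31.3%, 33.1% and 29%, and 33.1% and 29.7% in these settings. With an array left out, the median lay between 0.12 and 0.19. Between WT stroma and WT splenocytes, the 1 higher call became 3 without background correction and with offset 50, 5 with the authors' values, 2 without a detection filter and with a trend in eBayes, and 0 among members detected on all 8 arrays, a setting chosen after seeing the data. With an array left out it was 0 or 1, and the median was −1.16 with scaling to the 75th percentile. Between cultured stroma and WT splenocytes, cyclic loess gave 8 higher calls and a median of −0.72, and with an array left out 1 to 6 were higher and 23 to 36 lower. The cause of these shifts was not tested. With a replicate block, 12 members were called higher in LTbR-KO stroma and 24 in cultured against fresh WT stroma, and the 1 named call it ended was *Rpl23* in cultured stroma against WT splenocytes.

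For 22 of 83 named single-probe results the sign turned in some setting, 35 times in all, of which 25 times the probe was called in neither setting. Between LTbR-KO and WT stroma, log2 differences below 0 turned to 0.019 for an *Rps9* probe with cyclic loess, and with scaling to the 75th percentile to 0.091 for *Rpl7l1*, 0.23 for *Rps19*, 0.074 for *Rps19bp1*, 0.0050 and 0.064 for 2 *Rps9* probes and 0.059 for *Rpl14*. In cultured against fresh WT stroma, *Rpl5* was at 0.040 with cyclic loess, and scaling to the 75th percentile gave 0.87 for *Rpl11*, 0.74 for *Rpl5*, −0.13 for *Rpl3l*, 0.23 for *Rps27*, 0.17 for *Rps18*, 0.18 for *Rps14* and 0.33 for *Rps20*. In WT stroma against WT splenocytes, *Rps21* was at −0.091 with cyclic loess, and scaling to the 75th percentile gave −0.71 for *Rps21*, −0.58 for *Rps18*, −0.55 for *Rps14* and −0.54 for *Rps20*. With an array left out, uncalled differences crossed 0 between LTbR-KO and WT stroma for *Rpl7l1* (−0.091 to 0.065 and −0.31 to 0.21), *Rps15a* (−0.50 to 0.042), *Rps19bp1* (−0.25 to 0.092), *Rps9* (−0.24 to 0.056), *Rpl22l1* (−0.023 to 0.14) and *Rps19* (−0.11 to 0.028), in cultured against fresh WT stroma for *Rpl11* (−0.25 to 0.034) and *Rpl5* (−0.27 to 0.0078), and in WT stroma against WT splenocytes for *Rpl11* (−0.28 to 0.0064), *Rps21* (−0.022 to 0.28) and a *Rpl23* probe (−0.091 to 0.38). *Rpl3l* lay at the floor of the authors' values in LTbR-KO and WT stroma and gave no direction there. Probes close to background, such as *Rps15a*, *Rps19*, *Rpl22l1* and *Rpl3l*, are the least certain.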
